A study of Mus musculus with 2 samples.

Results

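The wide accessible regions of G1E cells were 89 stretches of open chromatin that reached 1000 bp or more in both ATAC-seq libraries. They were selected on width alone: overlapping or touching peaks were merged within each replicate, and a replicate 1 region was kept where it was at least 1000 bp wide and overlapped a replicate 2 region of at least 1000 bp. They were 89 of the 21194 regions of replicate 1, or 0.420% of them, and each had 1 partner among the 22620 regions of replicate 2. They are set beside the 17582 replicate 1 regions under 1000 bp that overlapped a replicate 2 region of any width, called narrower regions. Some of these overlapped a replicate 2 region of 1000 bp or more.

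The series held 1 group of 2 biological replicates of G1E, a mouse erythroid progenitor line that the labels describe as Gata1- and give as strain C57BL/6J, male, postnatal, 0 day, with 50000 cells per replicate. In ATAC-seq a transposase inserts sequencing adapters where DNA is open, and a peak list gives the resulting intervals. The labels do not state if separate cultures were used, and there was no second condition to compare. The lists were those thresholded by the irreproducible discovery rate (IDR), a measure of how alike the ranks of peaks are between repeated measurements, and they carry no read totals, so the depth is unknown and a region absent from a list is not shown to be closed.

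Chromatin opens where transcription factors displace nucleosomes. At the start sites of broadly expressed genes the open stretch often lies in a CpG island, a region that has kept its CpG dinucleotides and is usually unmethylated. Enhancers far from start sites are usually CpG-poor and carry the motifs of cell-type factors. In erythroid progenitors these include GATA1 and GATA2, which share a recognition motif, and their partner TAL1. G1E cells lack functional GATA1 and stop maturing before the terminal red cell stages.

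The wide regions fell into 4 classes by what GENCODE M21 annotates there. A start site of a protein-coding gene lay inside 44 of them, 10 held only start sites of noncoding genes, 7 held none but had one within 1000 bp, and 28 were distal, with no start site of any gene within 1000 bp. The sequences at the strongest summits of some members are given below, where a summit is the position of highest signal in a peak. They are not a comparison of classes, since 5 were chosen for a GATA match and the capitals mark different features. They are reference sequence from GRCm38.p6 in RefSeq, the build called mm10, plus strand, 200 bp each, and were not read from the cells. The first 5 are the widest members with no start site inside that hold a GATA match at the summit, and capitals mark AGATAA or AGATAG or TGATAA or TGATAG on either strand.
Wide region 3, intergenic, nearest to Fshb, chr2:107119775-107119974: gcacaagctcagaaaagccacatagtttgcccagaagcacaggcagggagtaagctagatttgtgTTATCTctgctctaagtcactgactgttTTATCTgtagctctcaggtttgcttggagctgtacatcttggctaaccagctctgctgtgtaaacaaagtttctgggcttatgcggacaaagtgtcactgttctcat
Wide region 5, Agpat4 intron, chr17:12205307-12205506: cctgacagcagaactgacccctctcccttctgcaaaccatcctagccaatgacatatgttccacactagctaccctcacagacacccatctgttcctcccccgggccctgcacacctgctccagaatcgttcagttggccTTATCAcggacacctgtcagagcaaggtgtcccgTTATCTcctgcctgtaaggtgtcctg
Wide region 13, Nova1 intron, chr12:46710194-46710393: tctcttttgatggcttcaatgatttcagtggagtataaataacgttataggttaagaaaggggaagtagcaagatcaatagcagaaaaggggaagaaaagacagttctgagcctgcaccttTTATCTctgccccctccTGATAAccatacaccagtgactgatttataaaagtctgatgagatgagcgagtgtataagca
Wide region 15, Zdhhc17 intron, chr10:110992107-110992306: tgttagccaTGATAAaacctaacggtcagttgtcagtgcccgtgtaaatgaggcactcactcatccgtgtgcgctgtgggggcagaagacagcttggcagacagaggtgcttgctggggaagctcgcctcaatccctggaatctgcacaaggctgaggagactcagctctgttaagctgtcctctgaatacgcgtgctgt
Wide region 19, Fancc intron, chr13:63314388-63314587: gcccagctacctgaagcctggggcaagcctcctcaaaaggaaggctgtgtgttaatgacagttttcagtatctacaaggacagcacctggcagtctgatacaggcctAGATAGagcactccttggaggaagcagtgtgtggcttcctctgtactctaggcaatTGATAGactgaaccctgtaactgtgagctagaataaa

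The next 4 are the widest members with a start site inside, and capitals mark CpG dinucleotides. The first of them, in the pseudogenes of a Myo3a intron, is AT-rich, and the other 3 hold 8 to 12 CpG dinucleotides in the 200 bp. Wide region 15 above holds 7, and wide region 7 below also holds 1 GATA match, left in lower case.
Wide region 1, pseudogenes in a Myo3a intron, chr2:22587943-22588142: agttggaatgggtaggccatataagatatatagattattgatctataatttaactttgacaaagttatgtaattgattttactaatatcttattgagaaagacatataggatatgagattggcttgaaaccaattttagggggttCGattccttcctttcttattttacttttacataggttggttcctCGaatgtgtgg
Wide region 4, start of 1700064H15Rik, chr3:19628378-19628577: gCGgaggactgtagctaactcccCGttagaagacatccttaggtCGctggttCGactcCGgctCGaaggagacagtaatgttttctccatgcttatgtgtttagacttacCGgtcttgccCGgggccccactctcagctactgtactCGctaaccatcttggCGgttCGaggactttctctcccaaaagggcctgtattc
Wide region 6, start of snRNA genes, chr5:115489840-115490039: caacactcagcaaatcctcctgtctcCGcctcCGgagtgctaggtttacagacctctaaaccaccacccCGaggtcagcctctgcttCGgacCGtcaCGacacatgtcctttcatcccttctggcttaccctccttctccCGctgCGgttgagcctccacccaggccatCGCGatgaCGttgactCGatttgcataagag
Wide region 7, starts of Brca1 and Nbr1, chr11:101552640-101552839: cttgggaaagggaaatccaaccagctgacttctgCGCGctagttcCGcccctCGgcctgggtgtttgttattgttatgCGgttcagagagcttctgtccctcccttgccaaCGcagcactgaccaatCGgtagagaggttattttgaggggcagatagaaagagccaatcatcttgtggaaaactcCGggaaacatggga

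Widths were close in both replicates. In replicate 1 the members ran from 1000 bp to 2919 bp with a median of 1109 bp, and in replicate 2 from 1000 bp to 2937 bp with a median of 1115 bp. The median difference between replicates was 41 bp, the largest was 333 bp, and 72 of the 89 were within 100 bp. A median of 98.9% of the replicate 1 region lay inside its partner, and the lowest was 75.2%. Most members were little wider than the limit, since 80 were under 1300 bp in both replicates and 2 were over 1500 bp in both. Together they covered 102.4 kb in replicate 1 and 103.4 kb in replicate 2.

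**Figure D1:**
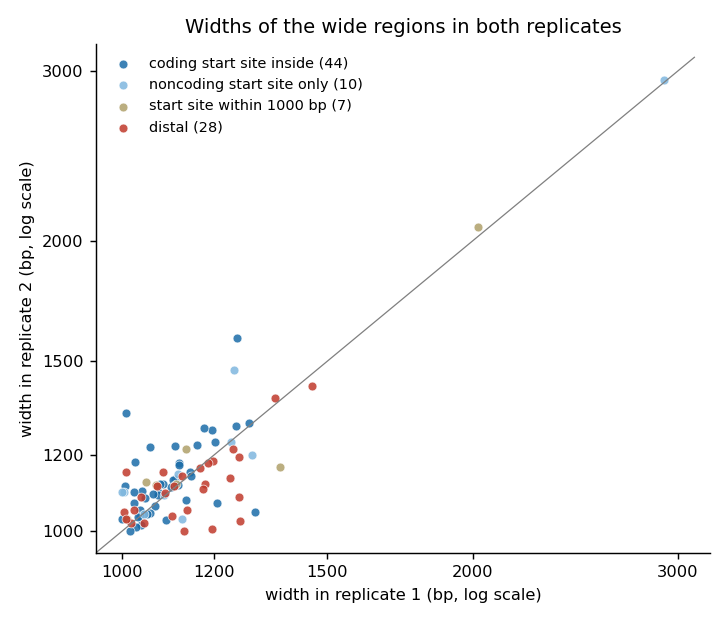
Width of each of the 89 wide regions in replicate 1 (x, bp, log scale) and replicate 2 (y, bp, log scale), coloured by class, with the line of equal width. The points gather just above 1000 bp, and 2 regions, of 2919 and 2022 bp in replicate 1, stand apart from the rest.

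Many regions were wide in 1 library only. Replicate 1 had 195 regions of 1000 bp or more, of which 106 were not members: 105 overlapped a narrower region of replicate 2, with a median partner width of 760 bp, and 1 overlapped none. Replicate 2 had 262 such regions, and the 173 that were not partners of a member all overlapped a narrower region of replicate 1, with a median width of 715 bp. Just inside the limit were chr7:29210986-29211985 in Catsperg1 (1000 bp in replicate 1 and 1031 bp in replicate 2), chr16:76122233-76123232 in 4930578N18Rik (1000 bp and 1098 bp) and chr1:36919676-36920679 in Tmem131 (1004 bp and 1047 bp). Just outside it, chrX:42067787-42068785 at Xiap measured 999 bp in replicate 1 and 802 bp in replicate 2. Next came chr13:45526936-45527933, nearest to Gmpr, with 998 bp in replicate 1 and 734 bp in replicate 2, and chr3:135825413-135826410 at Slc39a8 with 998 bp and 461 bp.

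The wide regions held several summits each. A listed interval is repeated once for each of its summits, and no region held more than 1 distinct interval, so width here is that of a single called interval. In replicate 1, 26 members held 2 summits, 31 held 3, 30 held 4, 1 held 6 and 1 held 10. In replicate 2, 1 member held a single summit, 20 held 2, 40 held 3, 25 held 4, 2 held 5 and 1 held 10. The member with a single summit in replicate 2 was at Snhg8, the host gene of small nucleolar RNAs, and it had 3 in replicate 1. Among the narrower regions, 13709 (78.0%) held 1 summit, 3431 (19.5%) held 2 and 442 (2.51%) held 3 or more. Summit number and width come from the same calls, so this is a description of what the width limit selects.

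Most summits lay at the same places in both libraries. Replicate 1 and replicate 2 each listed 281 summits in the members, and 238 of those of replicate 1 (84.7%) had a replicate 2 summit within 50 bp. In narrower regions with more than 1 summit the share was 68.7% of 8209 summits. Those regions were taken on replicate 1 summits alone, while members had to be wide in both replicates, so the 2 shares are not like for like. Summit numbers were equal in 49 members, higher in replicate 1 in 20 and higher in replicate 2 in 20. Adjacent summits were a median of 311 bp apart in replicate 1 and 323 bp apart in replicate 2, against 274 bp in the narrower regions of replicate 1. Summits per kb were at a median of 2.76 in the wide regions and 2.70 in the narrower ones.

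**Figure D2:**
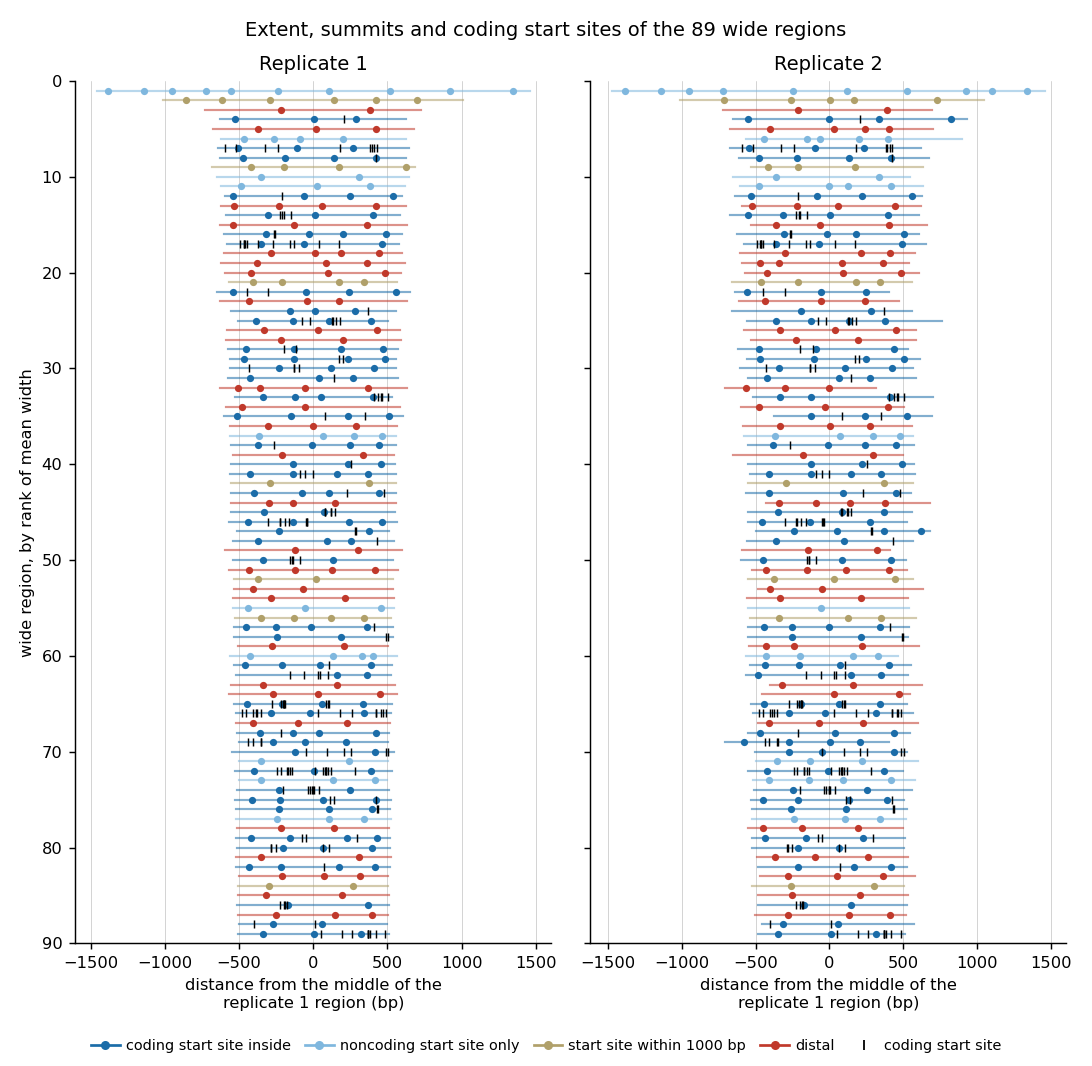
Extent (lines), summits (dots) and coding start sites (black ticks) of the 89 wide regions in replicate 1 (left) and replicate 2 (right), against distance in bp from the middle of the replicate 1 region, ordered by mean width from the top and coloured by class. Most lines span about the same distance in both panels, and dots recur at the same offsets for 84.7% of replicate 1 summits, counted within 50 bp.

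The wide regions were not the strongest ones. The signal value, the enrichment that the authors' peak caller gave each peak, is not scaled between libraries and is used here only to rank regions within a list. The lists were also derived from a further file of unstated content, and what that file did to the signal or to regions of repeated sequence is unknown. The strongest summit of a member stood at a median percentile of 69.8 in replicate 1 (lowest 14.6, highest 96.4) and 68.2 in replicate 2 (lowest 9.38, highest 96.2). Narrower regions had a median percentile of 57.5 in replicate 1. Across the 89 members, Spearman's rho between replicates was 0.854 for signal and 0.547 for width, as a description over regions of the same 2 libraries.

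The widest region, chr2:22587310-22590228, lay in an intron of Myo3a, a myosin of sensory cells, over the pseudogenes Gm13340 and Gm13341. It was 2919 bp wide with 10 summits in replicate 1 and 2937 bp with 10 summits in replicate 2. Its signal was low in both lists, at percentile 14.6 in replicate 1 and 9.38 in replicate 2. Of its 36-base words, 56.1% also occur elsewhere in the genome and 48.1% in the mitochondrial genome, whose DNA is open to the transposase. Whether reads from elsewhere were placed in this region was not tested.

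The second widest, chr5:109556768-109558789, lay in an intron of Crlf2, which encodes a subunit of the receptor for the cytokine TSLP. It was 2022 bp wide with 6 summits in replicate 1 and 2067 bp with 5 summits in replicate 2, at percentiles 25.2 and 18.9 of signal. None of its 36-base words occurs elsewhere in the genome, and its CpG observed to expected ratio, the number of CpG dinucleotides over that given by its C and G content, was 0.703. The third, chr2:107118762-107120216, was 1455 bp wide in replicate 1 and 1414 bp in replicate 2 and was distal, with 2 summits in each replicate. Its nearest coding start site, that of the hormone subunit gene Fshb, was 59.8 kb away.

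The rest of the 10 widest were of mixed kinds. The fourth, at chr3:19627845-19629099, held the start site of 1700064H15Rik and was 1255 bp wide in replicate 1 and 1588 bp in replicate 2. The fifth, at chr17:12204713-12206066 in an intron of the acyltransferase gene Agpat4, was 1354 bp and 1375 bp. The sixth, at chr5:115489403-115490649, covered the starts of the snRNA genes Gm24265 and Gm24407 and was 1247 bp with 4 summits in replicate 1 and 1468 bp with 5 in replicate 2. The seventh, chr11:101551832-101553116, spanned the divergent starts of the DNA repair gene Brca1 and the autophagy receptor gene Nbr1, with 1285 bp and 1294 bp and 3 summits in each replicate. The other three lay at the start of Cox20, an assembly factor of cytochrome c oxidase (1253 bp and 1285 bp), in an exon of B930059L03Rik (1368 bp and 1167 bp) and at the noncoding genes Gm6410 and Gm7461 (1293 bp and 1200 bp).

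Repeated sequence was present in a minority. More than 10% of the 36-base words occurred elsewhere in the genome in 10 of 89 wide regions (11.2%), against 785 of 17582 narrower ones (4.46%), and 65 wide regions (73.0%) held no such word, against 15127 narrower ones (86.0%). The highest shares were 65.6% at the zinc finger gene Zfp959, 62.5% at its neighbour Zfp119a, 56.1% at the widest region, and 55.1% and 51.9% at Rnu3b1 and Rnu3b4, copies of the U3 small nucleolar RNA gene. The processed pseudogene Gm4076 had 30.7%, and 17.2% of its words are in the mitochondrial genome. Reads from near-identical copies can be split or shared between them, and how the authors placed such reads is not given in the sources used here. Repeat-masked bases made up a median of 5.68% of a wide region and 6.83% of a narrower one.

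Start sites of protein-coding genes lay inside 44 of 89 wide regions (49.4%, exact 95% interval 38.7 to 60.2, covering counting error only) and 7110 of 17582 narrower ones (40.4%). The same 44 held one in replicate 2. Since a wider region covers more sequence, the distance of the strongest summit gives a fairer view. That summit was within 500 bp of a coding start site in 42 wide regions (47.2%) in replicate 1 and 41 (46.1%) in replicate 2, against 44.4% of narrower regions. Start sites were no more frequent than in regions just under the limit, where 56.9% of those of 800 to 999 bp held one.

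The 44 regions held 174 coding start sites of 52 genes. Divergent starts of coding genes, on opposite strands and pointing away from each other, were in 8 of 44 (18.2%), against 760 of 7110 narrower start-site regions (10.7%) and 20.7% of those of 800 to 999 bp. The pairs were Brca1 and Nbr1, Odr4 and Tpr, Hsp90b1 and Ttc41, 3110009E18Rik and Dbi, Cenpn and Cmc2, Mboat7 and Tsen34, Eny2 and Nudcd1, and Hmgb1 and Uspl1. Among these, Tpr encodes a nuclear pore protein, Hsp90b1 a chaperone of the endoplasmic reticulum, Cenpn a centromere protein, Tsen34 a subunit of the tRNA splicing endonuclease, Eny2 a subunit of a histone-modifying coactivator and Hmgb1 a chromatin protein. With noncoding genes counted, 17 of all 89 wide regions (19.1%) held divergent starts, and among those with a coding start site 16 of 44 (36.4%) did, against 18.4% of narrower start-site regions and 30.9% of those of 800 to 999 bp.

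Most wide start-site regions had summits on both sides of the start. In the 36 whose coding start sites were all on 1 strand, the region reached a median of 492 bp upstream and 550 bp downstream of the most upstream coding start site inside. In the 6325 narrower ones these were 259 bp and 163 bp, and in the 1777 narrower ones with more than 1 summit 335 bp and 318 bp. Summits stood on both sides of the start in 25 of 36 (69.4%), against 53.0% of narrower ones with more than 1 summit. The strongest summit was upstream in 27 of 36 (75%), in 73.8% of the narrower ones and in 68.7% of the narrower ones with more than 1 summit. In both sets the strongest summit was mostly on the upstream side. The members were chosen on width, so the longer reach and the summits on both sides are a description of that choice. The downstream reach was the longer of the 2 in 52.8% of the wide regions and 49.4% of the narrower ones with more than 1 summit.

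By signal, the strongest members with a start site were Zfp959, Fam174a, Zfp119a, the pseudogene Gm4076 and Lrif1, a gene for a nuclear protein that binds heterochromatin protein HP1. Zfp959 stood at percentile 96.0 in replicate 1 and 96.1 in replicate 2, and Fam174a at 95.7 and 96.2. Lrif1 stood at 95.5 in replicate 1 and 88.1 in replicate 2. Of these 5, Zfp959, Zfp119a and Gm4076 are among the members with repeated sequence given above. Genes named Zfp, most of which encode zinc finger proteins, were 4 of the 52 (7.69%): Zfp78, Zfp119a, Zfp369 and Zfp959. They were 3.06% of the coding genes with a start site in a narrower region and 1.81% of all coding genes.

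Further members with a start site, chosen after their values were seen, show the range of functions. Txn1 encodes the redox protein thioredoxin, and its region was 1196 bp wide in replicate 1 and 1273 bp in replicate 2 with 4 summits in each. Dctd encodes the deaminase that makes dUMP, and its region was 1008 bp and 1325 bp wide. Slc39a10 encodes a zinc importer (1147 bp and 1141 bp), Ndc80 a kinetochore protein (1078 bp and 1119 bp) and Rfc4 a subunit of the clamp loader in DNA replication (1028 bp and 1011 bp). The region at the Gt(ROSA)26Sor locus, widely used for transgenes, was 1049 bp wide in replicate 1 and 1125 bp in replicate 2 and lay within 1000 bp of a start site.

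Of 14 gene lists, 1 gene had its start site in a wide region. As a check of the cell type over the whole lists, 7 of 7 erythroid transcription factor genes and 7 of 8 other erythroid genes had an accessible region at the promoter in both replicates, against 0 of 5 myeloid, 0 of 4 lymphoid and 0 of 3 mast cell genes and 1 of 4 megakaryocyte genes, Itga2b. Alas2 was the erythroid gene without one. Of 20 genes of red cell membrane and surface, 13 had a start site in a narrower region and 1, Trim10, in a wide one. None of 20 erythroid factors and cofactors and none of 20 genes of hemoglobin and heme synthesis had a start site in a wide region, while 16 (80%) and 13 (65%) had one in a narrower region. Of all coding genes 34.4% had a start site in a narrower region, and of the ribosomal protein, cell cycle and cytokine signalling lists 85% each. The short marker sets of other blood lineages understate their longer lists. There, 4 of 18 mast cell and basophil genes (22.2%) and 7 of 20 megakaryocyte and platelet genes (35%) had one. So did 7 of 20 stem and progenitor genes (35%), and 1 of 20 each of the granulocyte and macrophage and the lymphoid genes (5%). No gene of the other lists had a start site in a wide region (ribosomal proteins, cell cycle, stress response, cytokine signalling, stem cells, lymphoid cells, macrophages and granulocytes, basophils and mast cells, platelets, hepatocytes, neurons). Across all 21938 coding genes, 0.237% had a start site in a wide region, so a list of 20 would seldom hold one.

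Trim10 encodes a RING finger protein known for a part in red cell maturation. Its region, chr17:36869285-36870395, was 1111 bp wide in replicate 1 and 1132 bp in replicate 2, with 4 summits in each. Its signal stood at percentile 68.7 in replicate 1 and 91.1 in replicate 2. The CpG ratio was 0.263, the lowest of the 44 regions with a coding start site, and the 200 bp at the strongest summit held 1 GATA match. Mafk encodes a small Maf protein, the partner of NF-E2 p45, and a distal wide region lay 12.8 kb from its outermost start, in an exon of Tmem184a. That region, chr5:139803725-139804987, was 1263 bp wide in replicate 1 and 1025 bp in replicate 2 and held 3 GATA matches at the strongest summit. Of the other lists, the ribosomal protein gene Rps9 lay within 50 kb of the region at Mboat7 and Tsen34, and the neuronal gene Gad2 within 50 kb of the widest region.

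The 28 distal members differed in sequence from those with start sites. The median CpG observed to expected ratio was 0.194 in distal wide regions and 0.718 in those with a coding start site in replicate 1, and 0.192 and 0.720 in replicate 2. Narrower regions of the same classes had 0.221 and 0.775. Over all classes the median was 0.675 in wide and 0.416 in narrower regions, and the ratio exceeded 0.6 in 53 wide (59.6%) and 6952 narrower ones (39.5%). GC content was a median of 47.2% in distal wide regions and 59.4% in those with a coding start site, against 47.6% and 61.2% in the narrower ones.

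**Figure D3:**
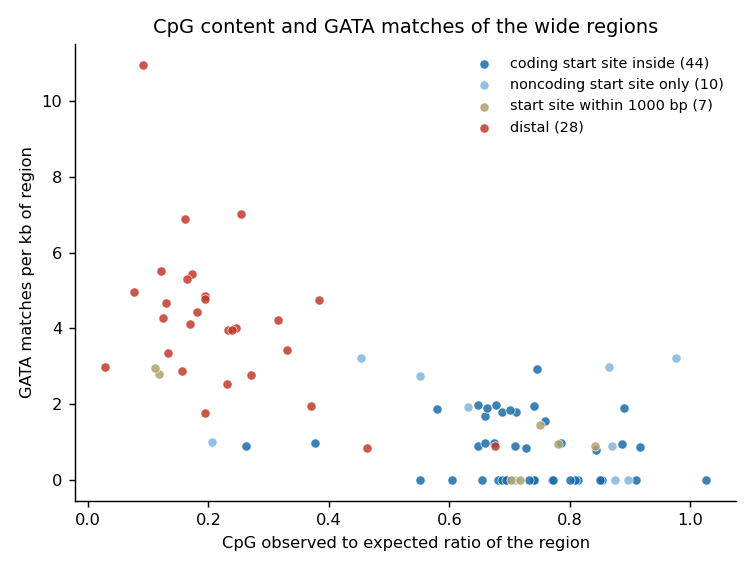
CpG observed to expected ratio (x) and GATA matches per kb (y) of the 89 wide regions in replicate 1, coloured by class. Most distal regions sit at ratios under 0.4 with a median of 4.17 GATA matches per kb, and most regions with a coding start site sit above 0.6 with a median of 0.816.

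GATA matches were frequent at the summits of distal wide regions. In 200 bp at the strongest summit, 25 of 28 held one in replicate 1 (89.3%, exact interval 71.8 to 97.7) and 22 of 28 in replicate 2 (78.6%, 59.0 to 91.7), a mean of 83.9% ± 7.58 (SD, n = 2). Both values are for the same 28 regions, classed by replicate 1, so this SD covers only where the strongest summit was placed. Narrower distal regions held one in 5657 of 8282 (68.3%). At least 2 matches were at the summit in 21 of 28 in replicate 1 (75%) and 18 in replicate 2 (64.3%), against 34.6% of narrower distal regions. Among the narrower ones the share was 47.2% at 800 to 999 bp and 44.6% at signal percentiles over 75. In distal regions wide in replicate 1 alone it was 50%, and in those wide in replicate 2 alone 47.1%. The replicate 2 interval for any match includes the share in narrower regions, and no test was made, since regions of 1 library are not replicates.

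Part of the comparison depends on what the narrower regions are matched on. Among narrower distal regions the share with a GATA match was 59.7% at signal percentiles under 25 and 76.6% at those over 75, and 70.8% over those within the signal range of the wide. By width it was 44.1% under 300 bp, 80.4% at 600 to 799 bp and 76.6% at 800 to 999 bp. By summit number it was 67.8% with 1 summit, 71.6% with 2 and 65.2% with 3 or more. By CpG ratio under 0.4, 25 of 26 wide distal regions held a match (96.2%), against 72.5% of narrower ones. Distal regions wide in replicate 1 alone held one in 26 of 32 (81.2%), and those wide in replicate 2 alone in 38 of 51 (74.5%). In windows 2000 bp to each side, outside every listed region, the share was 23 of 56 (41.1%) for wide distal regions and 32.0% for narrower ones.

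**Figure D4:**
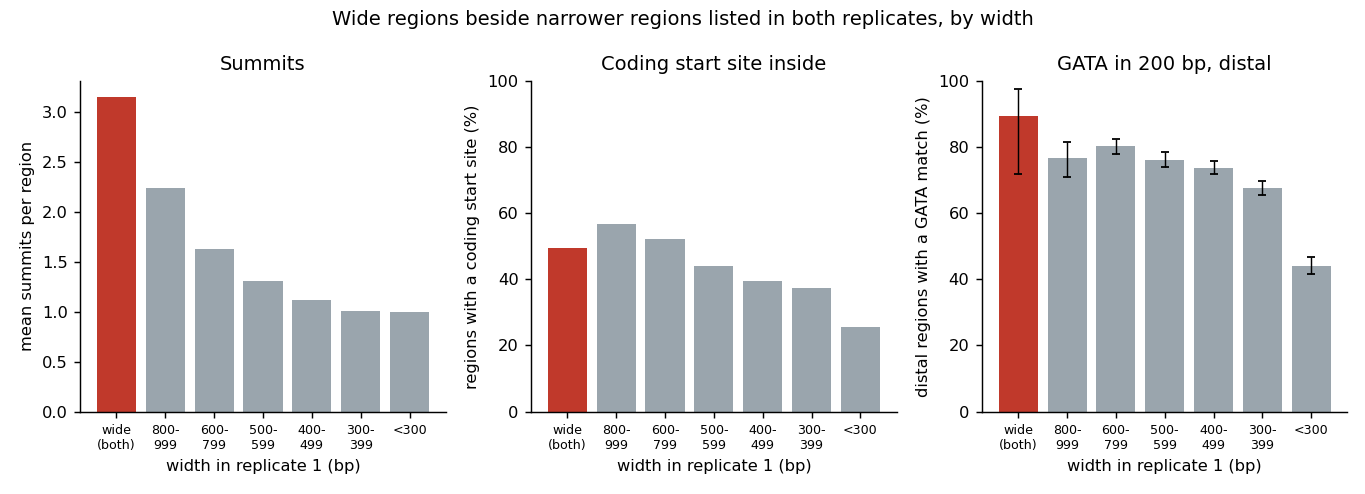
Mean summits per region (left), share with a coding start site inside (middle, %) and share of distal regions with a GATA match in 200 bp at the strongest summit (right, %, bars show exact 95% intervals), for the 89 wide regions (red) and for narrower regions by replicate 1 width (grey). Wide regions have 3.16 summits on average, 49.4% hold a coding start site and 89.3% of the distal ones hold a GATA match, against 2.24, 56.9% and 76.6% at 800 to 999 bp.

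Matches also lay away from the strongest summit. All 28 distal wide regions held at least 1 GATA match somewhere, with a median of 5 and 134 in all, and 27 had one within the 200 bp of at least 1 summit. Per kb of distal region, pooled over the class, there were 4.16 matches in wide and 4.23 in narrower regions. The most were 11 in chr1:36919676-36920679, in an intron of Tmem131, of which 1 lay in the 200 bp at its strongest summit. The 3 without one at the strongest replicate 1 summit were chr12:110991414-110992611 near Ankrd9, chr12:88983916-88985081 in an intron of Nrxn3 and chr14:76152015-76153123 near Nufip1. The first and last of these were the only distal wide regions with a CpG ratio of 0.4 or more, at 0.464 and 0.677.

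Few start-site summits of either set held a GATA match. In 200 bp at the strongest summit, 6 of 44 wide regions with a coding start site held one in each replicate (13.6%, exact interval 5.17 to 27.4), against 12.6% of narrower ones. Over the whole region 23 of 44 held one (52.3%), against 28.9% of narrower ones, which cover less sequence. Pooled over classes, 36 of 89 wide regions held a match at the strongest summit in replicate 1 (40.4%) and 33 in replicate 2 (37.1%), against 41.8% of narrower regions.

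A GATA-TAL1 composite, here CTG, then 8 bases of any kind, then a GATA match, was at the strongest summit in 9 of 28 distal wide regions in each replicate (32.1%, exact interval 15.9 to 52.4) and in 11.3% of narrower distal regions. By width, the share in narrower distal regions was 6.20% under 300 bp, 15.4% at 600 to 799 bp and 15.1% at 800 to 999 bp. Every composite match is also a GATA match. Over the whole region 11 of 28 held one (39.3%), against 14.4%, and per kb the pooled density was 0.342 in wide and 0.333 in narrower distal regions. Those with one included the regions near Fshb and Cdh10, in the introns of Nova1 and Steap3 and in the Tmem184a exon near Mafk. Steap3, which encodes the endosomal ferrireductase that erythroid precursors use to take up iron, was chosen after its values were seen. Its region was 1179 bp wide in replicate 1 and 1120 bp in replicate 2, with 3 GATA matches at the strongest summit.

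A total of 18 motifs was searched on both strands, and the other shares in the distal class are for replicate 1 unless given. The TAL1 E-box, CAGCTG or CAGATG, was at 35.7% of distal wide summits and 35.5% of narrower ones, and RUNX, TGTGGT, at 25% and 24.2%. NFY, CCAAT, was at 1 of 28 wide (3.57%) and 22.2% of narrower ones, AP-1, TGANTCA, at 3.57% and 14.0%, and KLF, CCNCACCC, at 3.57% and 12.6%. In replicate 2 NFY was at 2 of 28 (7.14%), and AP-1 and KLF at 1 each. Over the whole region the densities were closer, at 1.21 NFY matches per kb in wide and 1.31 in narrower distal regions. ETS, CCGGAA, was at 3.57% and 4.79%, PU.1, GAGGAAGT, at 3.57% and 5.89%, and the GC box, GGGCGG, at 7.14% and 10.1%. MYC E-box, CACGTG, was at 3.57% and 5.13%. In replicate 2 the GC box was at 5 of 28 wide summits (17.9%) and the MYC E-box at 2 (7.14%). Both were above the narrower shares, which were counted at replicate 1 summits only. In replicate 1, YY1, AANATGGC, was at 3.57% and 2.49%, and the TATA box, TATAAA, at 7.14% and 7.86%. CRE, TGACGTCA, GFI1, AATCACNGC, and the longer consensus words of CTCF, NRF1 and IRF had no match at the 28 summits, which allows shares of up to 12.3% by the exact interval, and 0.181% to 3.43% of narrower ones had one. A composite match can overlap a CAGCTG match, since the composite opens with CTG. A match is a description of letters and not a binding site.

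At start sites the most frequent motifs were the same in both sets. The GC box was at 59.1% of wide and 62.2% of narrower start-site summits, NFY at 38.6% and 40.8%, and ETS at 25% and 30.3%. The TAL1 E-box was at 13.6% and 15.9%, RUNX at 6.82% and 8.37%, NRF1 at 6.82% and 8.16%, CRE at 6.82% and 3.84%, and KLF at 4.55% and 14.3%. YY1 was at 4.55% and 7.74%, CTCF at 4.55% and 4.68%, GFI1 at 4.55% and 0.816%, and MYC E-box at 2.27% and 8.71%. The remaining motifs, AP-1, PU.1, IRF, TATA box and the composite, were at 0 or 1 of 44 wide and at 1.01% to 2.80% of narrower summits.

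**Figure D5:**
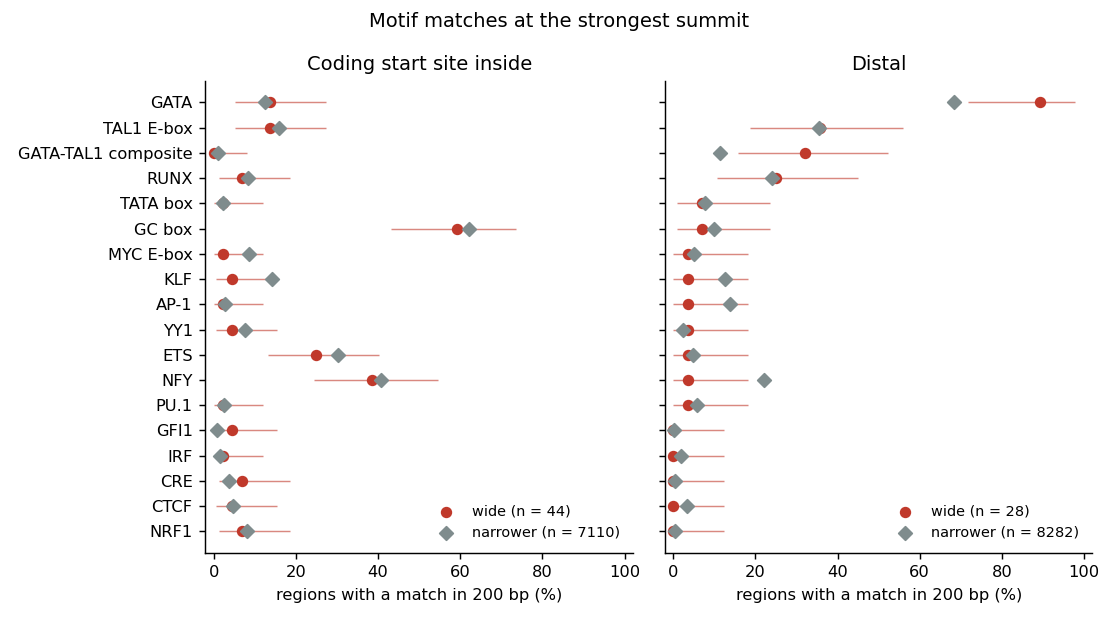
Share of regions with a match in 200 bp at the strongest replicate 1 summit (x, %) for 18 motifs (rows), in regions with a coding start site (left) and distal regions (right), for wide (red circles, lines show exact 95% intervals) and narrower regions (grey diamonds). In the distal panel GATA is at 89.3% and 68.3% and the composite at 32.1% and 11.3%, and in the start-site panel GATA is at 13.6% and 12.6% and KLF at 4.55% and 14.3%.

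Distal wide regions were spread over genes of many kinds. The strongest summit was in an intron in 12 of 28, in an exon in 2 and between genes in 14. The nearest coding start site was a median of 21.5 kb away (lowest 3.00 kb at Fancc, highest 583 kb at Stpg2), and 7 were over 100 kb from any. In 13 no coding gene had its outermost start within 50 kb. The strongest members with no start site inside were the Tmem184a exon near Mafk, chr15:19549735-19550742, chr7:64057897-64058907, chr18:16958491-16959663 and chr5:96951325-96952455. Of these, the region on chromosome 7 had a start site within 1000 bp and is not distal.

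The region at chr15:19549735-19550742 lay 543 kb from Cdh10, a cadherin gene, its nearest coding gene. It was 1008 bp wide in replicate 1 and 1029 bp in replicate 2, with 3 summits in each, at percentiles 84.2 and 88.3 of signal, and its CpG ratio of 0.0284 was the lowest of the 89. It held 3 GATA matches, all at the strongest summit. The region at chr18:16958491-16959663, 150 kb upstream of the N-cadherin gene Cdh2, was 1173 bp wide with 2 summits in replicate 1 and 1107 bp with 3 in replicate 2. The region at chr5:96951325-96952455, 45.8 kb from the kinase gene Bmp2k, was 1131 bp and 1000 bp wide, and the one at chr7:64057897-64058907, in an intron of the gene Gm20670 and 95.4 kb from Trpm1, was 1011 bp and 1031 bp. Each of these 3 held 2 GATA matches at the strongest summit.

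Of the widest distal members, those in the introns of Nova1, a neuronal splicing factor gene, and Zdhhc17, a palmitoyltransferase gene, were 1246 bp and 1261 bp in replicate 1 and 1216 bp and 1194 bp in replicate 2. The Nova1 region had 4 summits in each replicate and the Zdhhc17 region 3. The region 13.0 kb upstream of Ankrd9 was 1198 bp wide with 4 summits in replicate 1 and 1184 bp with 3 in replicate 2. The members lay on 18 chromosomes, with 10 each on chromosomes 1 and 12, and 6 lay within 50 kb of another member: Rnu3b1 and Rnu3b4, Zfp959 and Zfp119a, and the regions near Gm10775 and at Zfp369. Of the 89, all were in the authors' list of both replicates together and 88 reached 1000 bp there.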

How the data were processed

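The 2 biological replicates of G1E form 1 group for ATAC-seq. Peaks are in build mm10, per the labels. Not given in the sources used here are the aligner, peak caller, versions and treatment of multiply aligning reads. Per the deposited notes on the files, the lists derive from the alignments and from another file whose content is not stated. The authors deposited IDR thresholded lists per replicate and for both together, and more lenient lists per replicate; other lists in the series were left out as not needed. Each deposited peak has a start, an end, a summit offset, a signal value and a −log10 p, both from the authors' peak calling, of which the −log10 p supports no result. Peak lists hold no read totals, so the depth is unknown and no interval on signal can be given.

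Overlapping or touching intervals were merged within each list, with the strongest summit and signal kept. Start sites came from every transcript of GENCODE M21, sequence from GRCm38.p6. A region overlapped its partner by at least 1 bp. A 36-base word was called repeated where it occurs again in the genome on either strand. Python 3.11.15, numpy 2.4.6, scipy 1.17.1, numba 0.67.0 and matplotlib 3.10.9 were used, and the scripts were checked on small cases with known answers. The members, gene lists and motifs were chosen with earlier results of these data known. No test was made: intervals are exact 95% binomial (Clopper-Pearson) and cover counting error only. Named regions were the 10 widest, the 5 with most summits, the 5 strongest with and the 5 strongest without a start site, the 5 widest distal, those of the gene lists and the 3 on each side of the limit. Alternatives were other width limits, merging distances, lists, overlaps, start-site sets, motif windows and leaving out each replicate.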

Additional observations from a re-analysis of the deposited data

How the results depend on the processing

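Limits of 800, 1200 and 1500 bp gave 557, 12 and 2 regions, merging intervals up to 100 bp apart gave 152, and the list of both replicates 592. Leaving out a replicate gave 195 to 262. In the same order of settings (800, 1200, 1500 bp, merging, list of both), coding start sites were in 56.4%, 33.3%, 0%, 55.3% and 64.02% of regions, divergent starts in 18.5%, 25%, 0%, 20.4% and 21.5%, and the median CpG ratio was 0.627, 0.706, 0.627, 0.667 and 0.643. GATA matches at the strongest summit were in 37.7% (800 bp), 0% (1500 bp), 37.5% (merging) and 33.8% (list of both) of all regions. In the distal class they were in 79.2% (800 bp), 100% (1200 bp), 80.0% (merging) and 72.9% (list of both), and with start sites in 12.1%, 25%, 16.7% and 15.3%. The 1200 bp shares by class are over 3 distal and 4 coding start-site regions only. At 1500 bp no distal and no coding start-site region was left, so there is no share by class. More than 1 summit was in 94.6% (800 bp) and 98.3% (list of both), and the median number was 2, 3.5 and 8 at 800, 1200 and 1500 bp.

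With the stronger 50% of listed peaks, which drops weaker summits of an interval, 39.2% of regions had more than 1 summit (median 1), 48.6% a coding start site, 18.9% divergent starts, 45.9% a GATA match (16.7% with start sites) and the median CpG ratio was 0.658. Leaving out a replicate gave 98.1% to 99.0% with more than 1 summit, 55.4% to 58.4% with a coding start site, 20% to 20.99% with divergent starts, 35.9% to 37.9% with a GATA match, 75.9% to 85% of distal and 11.1% to 15.03% of start-site regions with one, a median of 3 summits and a median CpG ratio of 0.632 to 0.642. Coding start sites within 500 or 1000 bp of the region were at 52.8% and 53.9%, the outermost start site of each gene at 40.4%, and start sites of every biotype at 60.7%. For GATA, 400 bp gave 47.2% (18.2% with start sites), any summit 58.4% (36.4%), and the whole region 70.8% (52.3%, and 100% of distal). The CpG ratio in 200 bp was 0.564.

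Added after the data were seen, leaving out the 10 regions with over 10% repeated words gave 49.4% with a coding start site, 20.3% divergent, 44.3% with a GATA match and 15.4% of start-site regions with one. The GATA shares by class were also added then. No merging, the lenient lists and a reciprocal overlap of 50% left every value computed under them as it was. For merging and overlap little change was possible. No region held more than 1 distinct interval, and members lay at least 75.2% inside their partners. No member had more summits in the lenient lists. In all, 43 of 118 values, these included, stayed within the SD between replicates or, for the count of regions, within 1.5 times. That SD was 0 for coding start sites, divergent starts, median summits and start-site GATA, so any change there counted as outside. The tally is no measure of how firm the results are. No paired analysis was possible because there is 1 group. The cause of the differences between settings was not tested.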
